A study of Drosophila melanogaster with 8 samples.

Results

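The Lysozyme P group is a set of 7 transcripts, LysP, Ag5r, CG16826, whe, CG33109, CG34212 and CG43679, of which all were abundant in 1 library of each genotype. In the other 6 libraries, 6 of the 7 had at most 13 reads, while Ag5r had 6 to 191. The members were taken by FlyBase symbol from a table of 14622 gene identifiers, and all 7 were found. They had been selected on their normalized read counts in the same 8 libraries that are described here, as transcripts high in AdarEA replicate 2 and WT replicate 4. Their levels by library, and the differences computed from them, are therefore given as a description with no test.

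The libraries were made from heads of male Drosophila melanogaster, 3 days old and raised at 18 °C. The AdarEA group (4 libraries) came from flies of genotype y, sc, AdarE374A. These flies carry a substitution that makes ADAR, the enzyme that edits adenosine to inosine in RNA, catalytically inactive. The WT group (4 libraries) came from white Canton-S, the strain to which the mutant had been backcrossed per the study's methods. Nothing in the labels says whether the replicates of a group were separate cultures or collections of flies, so that p-values measure only the spread between these samples, which may be technical.

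Lysozymes are enzymes that cut the peptidoglycan of bacterial cell walls. In the fly, most c-type lysozymes serve digestion rather than systemic defence, and LysP was described from the salivary gland of the adult, an organ of the thorax whose duct runs forward to the mouthparts. Ag5r belongs to the antigen 5-related proteins, a branch of a large family of secreted, cysteine-rich proteins named after an allergen of wasp venom. The roles of CG16826, CG33109, CG34212, CG43679 and whe are not given in the sources used here, and they are described by position and level only.

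Values are normalized read counts, that is, reads per gene divided by 1 size factor per library. Total reads are those summed over the 14622 gene identifiers, not all reads sequenced. They ran from 12517490 to 24342035 in AdarEA and from 9930607 to 19173154 in WT. AdarEA replicate 2 had 14826555 and WT replicate 4 had 19173154. WT replicate 4 was the deepest WT library, before WT replicate 3 with 13685987, and AdarEA replicate 2 came after AdarEA replicate 4, the deepest of all 8. The part of depth in the levels of the members was not tested. The eye genes, which mark the head, had a summed count between 388265 and 461290 in AdarEA and between 281594 and 349050 in WT. Adar, whose mutation is a base substitution and whose transcript level therefore does not check the labels, had 6850, 5013, 3534 and 4722 normalized counts in the AdarEA libraries (replicates 1 to 4 in order, as in all lists of 4 values here), and 4539, 3679, 4458 and 3523 in the WT libraries.

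LysP (FBgn0004429) lies on 3L, 1218082 to 1218696, in the BDGP6.54 annotation, as a gene of 1 exon that encodes 141 residues. It had 0, 189, 0 and 0 normalized counts in the AdarEA libraries, and 1.32, 1.58, 0 and 790 in the WT libraries. The lysozyme transcript was thus abundant in AdarEA replicate 2 and WT replicate 4, from 215 and 1142 reads, while each of the other 6 libraries held at most 1 read. A count of 0 allows up to 3 reads, which is from 1.72 normalized counts in AdarEA replicate 4 to 3.44 in AdarEA replicate 1. At this depth the transcript was not detectable in the libraries with a count of 0.

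Ag5r (FBgn0015010; X, 14784664 to 14786551; 256 residues) had 18.3, 410, 6.56 and 14.9 normalized counts in the AdarEA libraries, and 21.2, 302, 27.0 and 3465 in the WT libraries. It had at least 6 reads in every library. Unlike the other members it was also high in WT replicate 2, where its 191 reads stood against 11 for the other 6 members together. The lower of its counts in AdarEA replicate 2 and WT replicate 4 was 1.36 times its count in WT replicate 2, so that the pattern by which the group was named holds for it only narrowly. The annotation places a noncoding RNA, lncRNA:CR45522, across 140 exonic bases of Ag5r on the opposite strand, and reads of the pair could not be told apart if the counting ignored strand.

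CG16826 (FBgn0032505; 2L, 13347773 to 13349020; 341 residues) was the most abundant member by normalized count. It had 0, 2232, 0 and 0 counts in the AdarEA libraries, and 0, 3.16, 0 and 22871 in the WT libraries. In WT replicate 4 it ranked 54 among all identifiers, from 33047 reads, and in AdarEA replicate 2 it ranked 1098. No library outside this pair held more than 2 reads of it.

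The transcript of whe (FBgn0031176; X, 21402339 to 21402772; 85 residues) had 0, 454, 0 and 0 normalized counts in the AdarEA libraries, and 0, 0, 0 and 8781 in the WT libraries. It was the member with no read at all in the other 6 libraries. Taking 3 reads per library as the floor, which is at most 4.74 normalized counts among those 6, whe was at least 95.8-fold higher in AdarEA replicate 2 and at least 1854-fold higher in WT replicate 4 than in any of them. These floors cover counting error only.

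CG33109 (FBgn0053109; 3R, 14220560 to 14221584; 296 residues) had 3.44, 346, 0 and 1.72 normalized counts in the AdarEA libraries, and 3.97, 0, 0 and 3051 in the WT libraries. CG34212 (FBgn0085241; 2R, 6049874 to 6050286; 48 residues) had 2.29, 174, 3.28 and 7.46 in AdarEA, and 3.97, 7.89, 4.32 and 1521 in WT. CG43679 (FBgn0263762; 3L, 15050856 to 15051425; 63 residues) had 1.15, 199, 0 and 0 in AdarEA, and 0, 4.74, 1.08 and 899 in WT. In all 3 the pair of high libraries was the same, and of these 3 only CG34212 had a low count in every other library, of 2 to 13 reads.

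**Figure D1:**
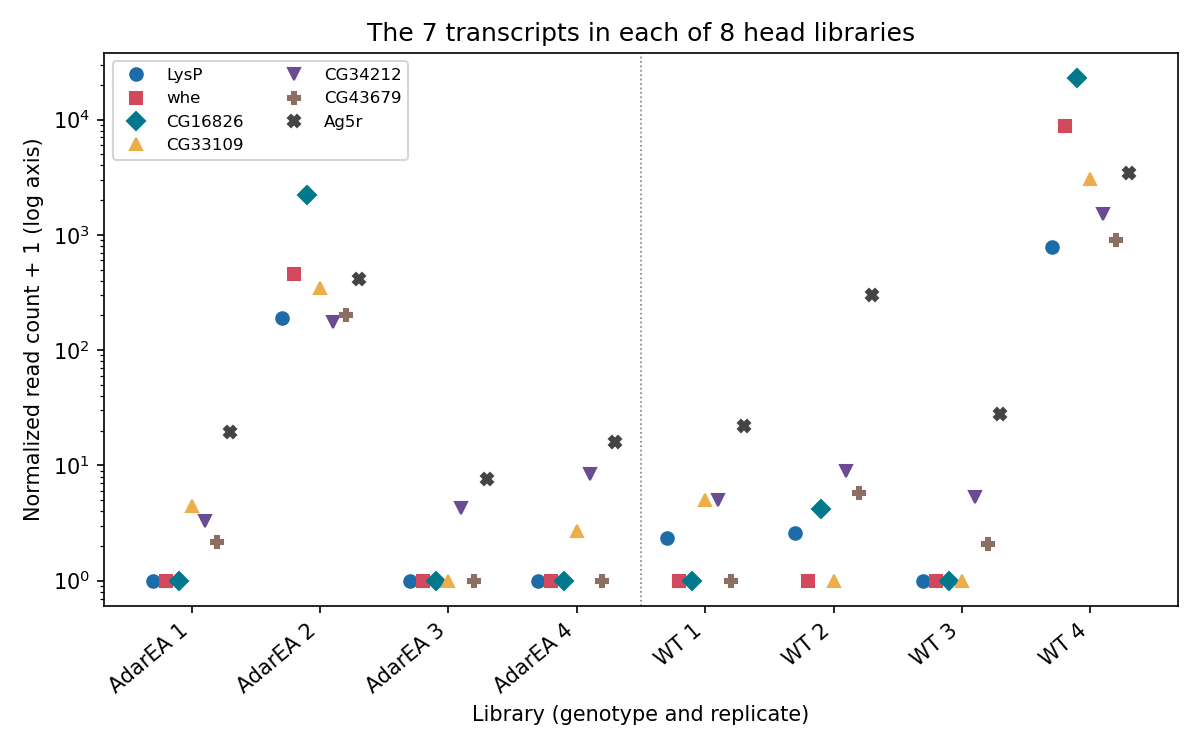
Normalized read count plus 1 (log axis) of the 7 members in each of the 8 libraries, AdarEA replicates 1 to 4 on the left of the dotted line and WT replicates 1 to 4 on its right; each point is 1 gene in 1 library. All 7 members are above 170 in AdarEA 2 and above 790 in WT 4, and outside this pair the highest point is Ag5r at 302 in WT 2.

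Summed over the 7 members, the reads came to 22, 4555, 9 and 42 in the AdarEA libraries, and to 23, 202, 30 and 59786 in the WT libraries. Of the reads counted over all gene identifiers, the group took 0.0307% in AdarEA replicate 2 and 0.312% in WT replicate 4. All 7 members exceeded 3 reads in this pair of libraries, whereas 1 or 2 of them did in each of the others. In bulk tissue such as whole heads, more cells that make a transcript and more transcript per cell cannot be told apart.

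In the comparison of genotypes, each genotype contributed 1 library in which all members were high. LysP averaged 47.2 ± 94.5 normalized counts in AdarEA and 198 ± 395 in WT (SD, n = 4 each), with medians of 0 and 1.45. CG16826 averaged 558 ± 1116 in AdarEA and 5719 ± 11435 in WT, and the values of the groups overlapped, as they did in all 7 members. The log2 difference, AdarEA minus WT, was -1.16 ± 2.36 for LysP, -1.07 ± 3.16 for whe and -1.35 ± 3.55 for CG16826 (SE from the limma fit). It was -0.46 ± 2.66 for CG33109, -1.02 ± 1.91 for CG34212, -1.16 ± 2.32 for CG43679 and -2.35 ± 1.69 for Ag5r.

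All 7 differences were below 0, with a median of -1.16 against a median of -0.0029 over the 10347 genes of the fit. Among all these genes, 0.657% were higher and 0.551% lower in AdarEA at a limma adjusted p under 0.05, and nothing is read from this for the members. The size of these differences depended on the fit. With edgeR they were -2.11 for LysP, -4.26 for whe, -3.35 for CG16826, -3.12 for CG33109, -3.05 for CG34212, -2.21 for CG43679 and -3.08 for Ag5r, and those of DESeq2 lay within 0.1 of these. The median SE of the members in the limma fit was 2.36, against 0.14 over all tested genes. The sign of most members rested on 1 library. Without WT replicate 4 the log2 difference of 6 of the 7 members was above 0, at 1.03 for LysP, 2.21 for whe, 2.10 for CG16826, 2.24 for CG33109, 0.96 for CG34212 and 0.99 for CG43679, and that of Ag5r was -0.87. Without AdarEA replicate 2 the differences ran from -4.13 for CG16826 to -2.27 for CG33109, with -3.28 for whe and -3.05 for LysP. Leaving out AdarEA replicate 1 gave -0.33 for whe, -0.43 for CG16826 and -0.53 for LysP. CG33109 was also above 0 without AdarEA replicate 3, at 0.54, and without AdarEA replicate 4, at 0.058. With AdarEA replicate 2 and WT replicate 4 both left out, 6 members fell below the minimum mean count for testing, and Ag5r was at -2.11.

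The level of the group in AdarEA replicate 2 was between 0.0517 and 0.239 times that in WT replicate 4, a span of WT replicate 4 over AdarEA replicate 2 from 4.18 to 19.4, whereas this quotient had a median of 1.007 over all tested genes. The members did not share 1 ratio. The ratio, AdarEA replicate 2 over WT replicate 4, was lowest for whe, at 0.0517 (95% exact binomial counting interval 0.0472 to 0.0564). It was 0.0976 (0.0937 to 0.102) for CG16826, 0.114 (0.102 to 0.126) for CG33109, 0.114 (0.0985 to 0.132) for CG34212 and 0.118 (0.108 to 0.130) for Ag5r. It was highest for CG43679, at 0.221 (0.191 to 0.255), and LysP, at 0.239 (0.206 to 0.277). The intervals of CG43679 and LysP overlapped each other and none of the rest. Those of CG33109, CG34212 and Ag5r overlapped one another, that of CG34212 also met that of CG16826, and that of whe met none. With 1 library of each kind, these intervals compare libraries and not genotypes.

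**Figure D2:**
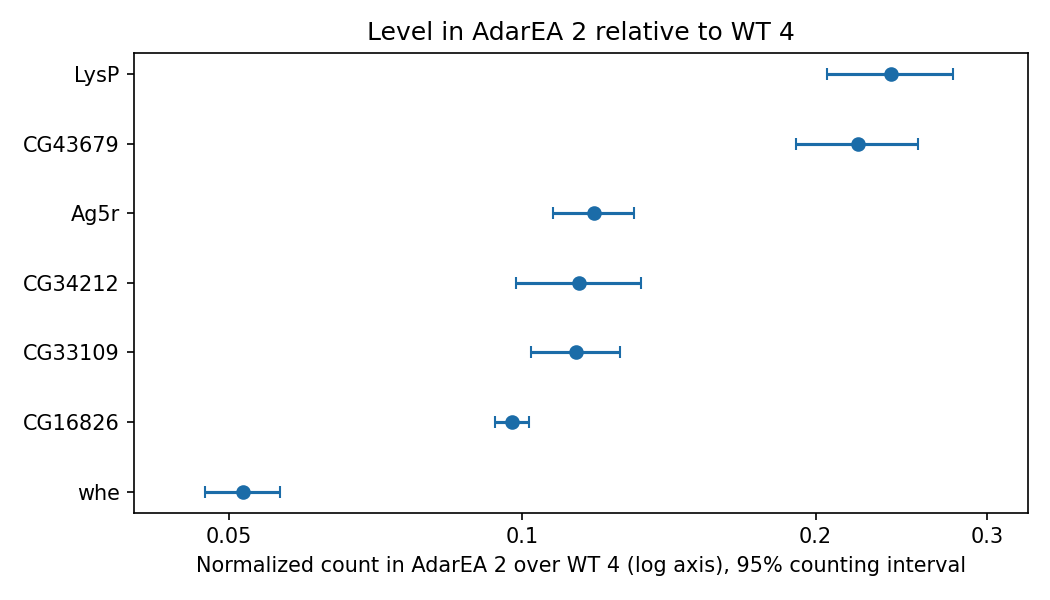
Normalized count of each member in AdarEA replicate 2 divided by that in WT replicate 4 (log axis); points are ratios and bars are 95% counting intervals. The ratios run from 0.0517 for whe to 0.239 for LysP, and all 7 lie below 1.

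The share of each member among the group's reads is given for the pair of libraries, with intervals that cover counting error only and compare 1 library with another. CG16826 supplied 55.7% of the members' reads in AdarEA replicate 2 (95% Wilson interval 54.3 to 57.2) and 55.3% in WT replicate 4 (54.9 to 55.7). The share of whe was 11.3% in AdarEA replicate 2 and 21.2% in WT replicate 4, with intervals of 10.4 to 12.3 and 20.9 to 21.6. LysP supplied 4.72% in AdarEA replicate 2 (4.14 to 5.38) and 1.91% in WT replicate 4 (1.80 to 2.02). The interval of whe lay lower, and that of LysP higher, in AdarEA replicate 2 than in WT replicate 4. CG43679 differed in the same direction as LysP, with 4.96% (4.37 to 5.63) in AdarEA replicate 2 and 2.17% (2.06 to 2.29) in WT replicate 4. Ag5r made up 10.3% (9.40 to 11.2) in AdarEA replicate 2 and 8.37% in WT replicate 4, whose interval lay below that of AdarEA replicate 2. CG33109 made up 8.65% (7.87 to 9.50) and CG34212 4.35% (3.79 to 4.98) in AdarEA replicate 2, against 7.37% (7.17 to 7.59) and 3.67% (3.53 to 3.83) in WT replicate 4. The intervals of CG34212 overlapped by a narrow margin, and those of CG16826 overlapped widely.

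Per kilobase of annotated exon, the order of the members changed between the libraries. In AdarEA replicate 2, CG16826 led with 1788 normalized counts per kilobase, before whe with 1045, CG34212 with 486, CG43679 with 385, CG33109 with 338, LysP with 307 and Ag5r with 233. In WT replicate 4, whe led with 20232, before CG16826 with 18326, CG34212 with 4247, CG33109 with 2976, Ag5r with 1969, CG43679 with 1742 and LysP with 1285. LysP, whose name the group carries, was thus the least abundant member per length in WT replicate 4. Each of these levels rests on 1 library, so that no spread can be set beside the order.

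The pattern was rare in the table. It was measured as the log2 ratio of the lower of AdarEA replicate 2 and WT replicate 4 to the highest of the other 6 libraries, on the log2(normalized count + 1) scale. Of the 7 members, 6 had a log2 ratio of at least 1, against 13 of 10347 tested genes (0.126%). The share describes what chose the members and is not a result about them. The ratio was 9.07 for CG16826, 8.83 for whe, 6.20 for LysP, 6.13 for CG33109, 5.12 for CG43679, 4.30 for CG34212 and 0.44 for Ag5r. All 7 were above 0, against 2.40% of tested genes. In the opposite direction, 0 tested genes were lower in this pair of libraries than in all the others by a log2 ratio of 1.

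The other 7 genes with a log2 ratio of at least 1 were CG44142 (5.14), CG30371 (4.01), lcs (3.33), CG13947 (2.86), CG12310 (2.71), CG42656 (1.24) and alpha-Man-Ic (1.06), the last a class I mannosidase that trims sugar chains on secretory proteins. CG44142 had 34.3 normalized counts in AdarEA replicate 2, 342 in WT replicate 4 and 0 in the other 6 libraries. The lcs transcript had 375 in AdarEA replicate 2 and 6421 in WT replicate 4, against 8.02 to 18.6 in the other AdarEA libraries and 22.7 to 36.3 in the other WT libraries. Like the members, these genes were lower in AdarEA replicate 2 than in WT replicate 4, by a ratio from 0.0148 for CG13947 to 0.568 for CG42656. CG13947 and CG30371 had at most 1 read in any library outside the pair. Among genes below the minimum mean count, 3 with more than 3 normalized counts in both libraries of the pair had a log2 ratio of at least 1. They were OtopLb (1.34), PH4alphaSG2 (1.33) and Hand (1.13), the last a transcription factor of heart and blood-forming tissue.

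After alpha-Man-Ic, just inside the threshold, the next genes were CG14636 (0.50), Cubn2 (0.38) and Trhn (0.32). Cubn2, named for its likeness to the endocytic receptor cubilin, and Trhn, the tryptophan hydroxylase of serotonin neurons, had 120 and 236 normalized counts in AdarEA replicate 2 and 39.4 and 239 in WT replicate 4. Trhn ran from 163 to 189 in the other libraries, so that its place in this order reflects a small difference.

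**Figure D3:**
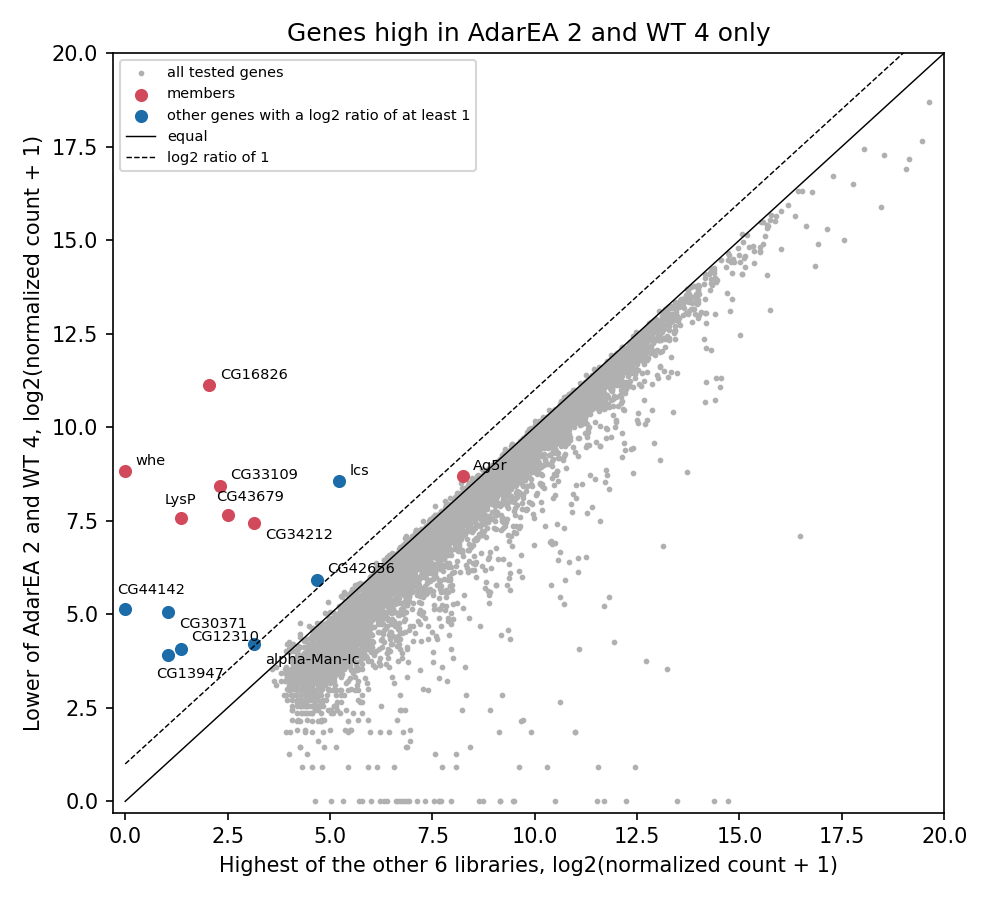
Lower of the AdarEA 2 and WT 4 values against the highest of the other 6 libraries, both as log2(normalized count + 1), for 10347 tested genes (grey), the 7 members (red) and the 7 other genes with a log2 ratio of at least 1 (blue); the solid line marks equal values and the dashed line a log2 ratio of 1. All members but Ag5r, at 0.44, lie above the dashed line.

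The high counts of LysP were not shared by the genes next to it. LysP lies between LysE, 4676 bp to its left, and LysS, 9051 bp to its right, within the cluster of lysozyme genes on 3L. It also lies within mwh, on the opposite strand, and shares no exonic base with it. LysE had 24.6 normalized counts in AdarEA replicate 2 and 21.5 in WT replicate 4, within the 12.0 to 29.1 of the other 6 libraries. LysS had 3.52 in AdarEA replicate 2 and 0.69 in WT replicate 4, and mwh had 345 and 323 in the same libraries, against 317 to 413 in the others. LysD, of the same cluster, had 9 reads in WT replicate 4, 1 in AdarEA replicate 2 and at most 2 in any other library, all near the floor.

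The genes next to Ag5r did not share its high counts either. Ag5r2, a gene of its own family 612 bp away, had 2.64 normalized counts in AdarEA replicate 2 and 0.69 in WT replicate 4. On the other side rut, an adenylyl cyclase needed for memory, had 5849 and 5668 in the same libraries, within the 4314 to 7259 of the rest.

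Of the 14 genes of the table that flank the members, 2 had a log2 ratio of at least 1. The gene lcs lies 5023 bp from whe on the same strand. CG12310 lies 50 bp from CG43679 on the same strand, and had 15.8 normalized counts in AdarEA replicate 2 and 60.9 in WT replicate 4, against at most 1.58 in the other libraries. Whether reads of CG12310 and CG43679 were counted apart was not tested. The other 12 flanking genes had log2 ratios below 0, and 5 of the 14 were below the minimum mean count of 10. This ratio does not show a gene high in WT replicate 4 alone. One of the 12, asRNA:CR44130, 2136 bp from CG34212, had 27.0 normalized counts in WT replicate 4. It had 2.64 in AdarEA replicate 2 and 1.15 to 6.47 in the remaining libraries. The members themselves were scattered over X, 2L, 2R, 3L and 3R, with 13.8 Mb between LysP and CG43679 and 6.62 Mb between whe and Ag5r.

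The members encode short proteins, of 48 to 341 residues with a median of 141, against a median of 461 for the 9485 tested protein-coding genes of the annotation. Their exonic length had a median of 615 bases, against 2154. At 341 residues or less, the length of the longest member, were 34.5% of the tested protein-coding genes. The share at or below the median length of the members is not given here.

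Other c-type lysozymes were set beside LysP. The choice of members could have taken any that were high in the pair of libraries, so that their log2 ratios are given as a description only. Of 12 listed beside LysP, 11 were in the table and 5 passed the minimum mean count of 10. None of the 5 had a log2 ratio above 0 for AdarEA replicate 2 and WT replicate 4, against 2.40% of all tested genes. Between genotypes, 0 of the 5 passed an adjusted p under 0.05 with limma, against 1.21% of all tested genes. At an unadjusted limma p under 0.05 there were 2. The share of all genes at that threshold is not given here, so nothing is read from this count. With edgeR 0 of the 10 tested genes of this list and the next one passed, against 126 of all 10347 tested genes. With DESeq2 1 of the 10 passed, which was CG16756, against 532 of all 10347.

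CG16756, a predicted lysozyme, had 166, 161, 335 and 270 normalized counts in the AdarEA libraries, and 110, 180, 109 and 118 in the WT libraries. Its log2 difference was 0.81 ± 0.26 (SE; adjusted p = 0.204 by limma and 0.0400 by DESeq2, with 4 libraries in each group). CG8492, which encodes a protein of several lysozyme domains, had 27.5, 25.5, 23.0 and 32.1 in AdarEA, and 58.2, 52.1, 34.5 and 30.5 in WT, a log2 difference of -0.64 ± 0.24 (limma adjusted p = 0.306). LysE had 17.2 ± 5.99 in AdarEA and 24.2 ± 3.42 in WT (SD, n = 4 each), a log2 difference of -0.52 ± 0.28 (limma adjusted p = 0.502). LysB, LysD and LysE are close copies of one another, and LysC, listed with them, is annotated as a pseudogene. How reads were split between them was not tested, so that their counts are uncertain. CG16799 and CG30062 were at 0.01 ± 0.26 and 0.00 ± 0.37 (limma adjusted p = 0.996 and 0.999).

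Of 20 listed antigen 5-related genes other than Ag5r, the table held 18, of which 5 passed the minimum. Again 0 of these 5 passed an adjusted p under 0.05 between genotypes with limma, against 1.21% of all tested genes. At an unadjusted limma p under 0.05 there were 0 as well, with no share of all genes given at that threshold. None had a log2 ratio above 0, against 2.40% of all tested genes. CG9400 had 175, 124, 166 and 145 normalized counts in the AdarEA libraries, and 143, 97.9, 93.9 and 152 in the WT libraries, a log2 difference of 0.34 ± 0.19 (SE; adjusted p = 0.503 by limma). CG8483 was at -0.59 ± 0.30 (limma adjusted p = 0.464) and CG17974 at -0.38 ± 0.38 (0.766). CG6628 and CG9822 were at 0.05 ± 0.42 and -0.03 ± 0.27 (0.983 each). Over both lists, 19 genes of the table were too low to test, and none of them exceeded 12.9 normalized counts in any library.

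**Figure D4:**
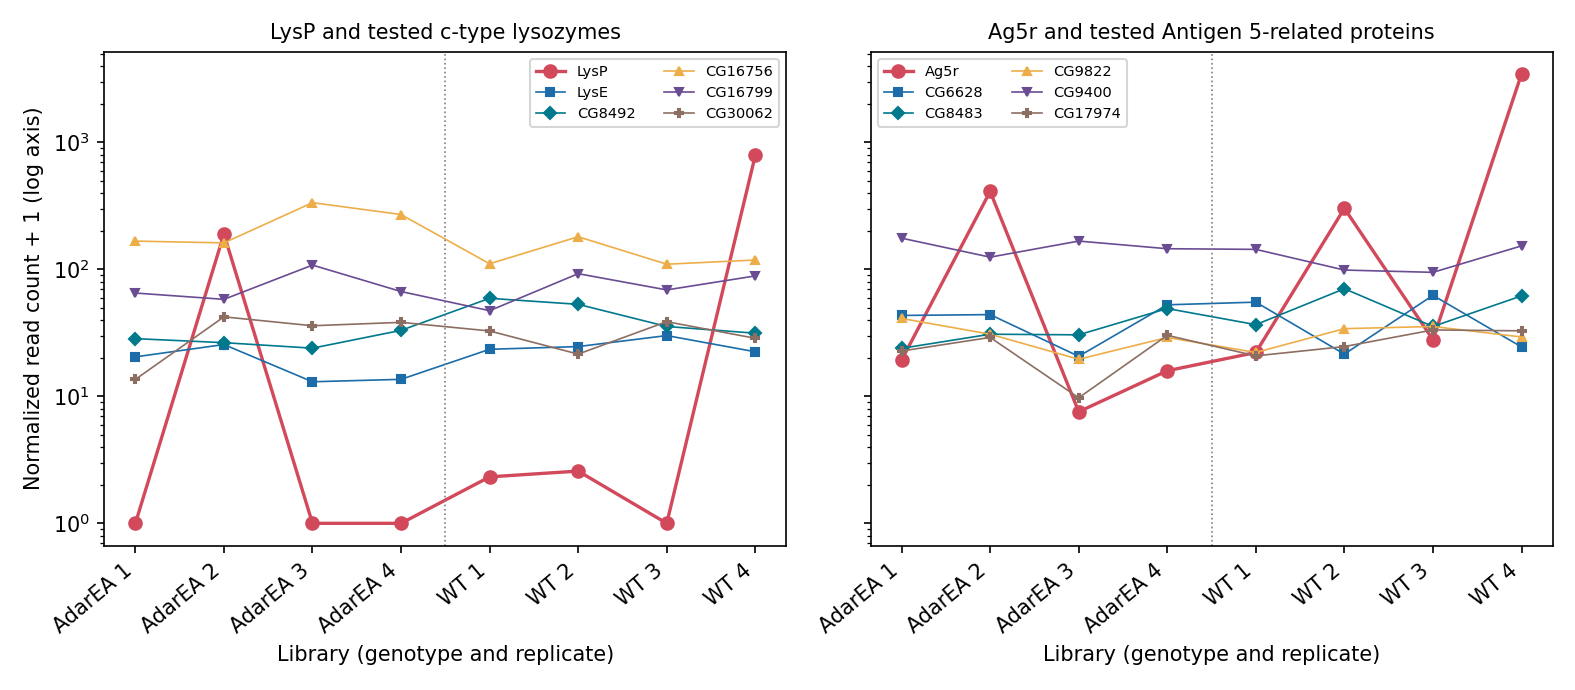
Normalized read count plus 1 (log axis) by library for LysP with the 5 tested c-type lysozymes (left) and Ag5r with the 5 tested antigen 5-related genes (right), AdarEA to the left of the dotted line and WT to its right; lines join the values of a gene as a guide, and replicates have no order. LysP and Ag5r (red) peak in AdarEA 2 and WT 4, and Ag5r also in WT 2, while the related genes stay between 8.75 and 335.

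Since LysP is a gene of the salivary gland, lists of markers for that organ and for other tissues were set beside the members. The table held 11 of 14 salivary gland genes, with a summed count of 1166 in AdarEA replicate 2 and 1577 in WT replicate 4, against ranges of 1016 to 1300 over all AdarEA and 1194 to 1577 over all WT libraries. The gland's transcription factors fkh, sage and CrebA were present in all 8 libraries. The count of fkh was 407, 417, 281 and 329 in the AdarEA libraries, and 427, 714, 590 and 735 in the WT libraries. The pair of libraries was thus the highest of each genotype for fkh, by a small margin over AdarEA replicate 1 and WT replicate 2. The count of sage ran from 26.3 to 52.7 in AdarEA and from 38.8 to 39.7 in WT. CrebA had 370 in AdarEA replicate 2 and 447 in WT replicate 4, against 357 to 613 over AdarEA and 368 to 500 over WT.

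Of the 11 genes, 8 passed the minimum mean count, and the shares of tested genes given next cover only such genes. Among all 11, 2 had a log2 ratio above 0, against 2.40% of tested genes. A ratio of at least 1 was reached by 1 gene, too low to test, against 0.126% of tested genes. That gene was PH4alphaSG2, a prolyl hydroxylase named for the salivary gland. It had 5 reads in AdarEA replicate 2 and 19 in WT replicate 4, against 1 in AdarEA replicate 1 and 0 in the other 5 libraries. Its 4.39 normalized counts in AdarEA replicate 2 lay below the 4.74 that a count of 0 allows in WT replicate 2. Only WT replicate 4 thus stood apart, at 13.1. Its companion PH4alphaSG1 had at most 2 reads in any library, and the glue gene Sgs7 had at most 1. The glue genes Sgs1 and Sgs4 went the other way, with log2 ratios of -1.76 and -1.42. They had 19.3 and 14.9 normalized counts in AdarEA replicate 2. In WT replicate 4 they had 11.1 and 8.31, the lowest of WT for both.

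In the midgut list, of which the table held 10 genes, the protease Jon65Aiv had 17 reads in WT replicate 4. It had 2 reads in AdarEA replicate 2 and 0 in the other 6 libraries, a log2 ratio of 1.46. Since a count of 0 allows up to 3 reads, only WT replicate 4 stood apart. Its relative Jon65Aiii had 2 reads in AdarEA replicate 2 and 13 in WT replicate 4, against at most 2 elsewhere. It did not have the pattern, with 1.76 normalized counts in AdarEA replicate 2, 3.16 in WT replicate 2 and a log2 ratio of -0.59. The trypsins betaTry and lambdaTry had at most 3 reads in any library. The summed midgut count was 236 in AdarEA replicate 2 and 212 in WT replicate 4, against 236 to 1678 over AdarEA and 184 to 232 over WT. Peritrophin-15a, of the lining of the gut, had at most 1 read in any library.

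The table held 6 of 11 accessory gland genes, none of which exceeded 9.18 normalized counts in any library. The testis list summed to 44.8 in AdarEA replicate 2 and 24.9 in WT replicate 4, the highest of AdarEA and the lowest of WT. Of its 8 genes in the table, 1 had a log2 ratio above 0, against 2.40% of tested genes, and only 1 passed the minimum mean count. The haemocyte list went the opposite way, with 4770 in AdarEA replicate 2, the lowest of AdarEA, and 5539 in WT replicate 4, the highest of WT. The foregut and proventriculus list came to 419 in AdarEA replicate 2 and 623 in WT replicate 4. The flight muscle genes Act88F and fln had 890 and 26.4 normalized counts in AdarEA replicate 2 and 1179 and 65.1 in WT replicate 4. WT replicate 4 was the highest WT library for both, while AdarEA replicate 1, with 1541 and 76.8, was the highest AdarEA library. The muscle list summed to 191119 in AdarEA replicate 2, the lowest of AdarEA, and to 194337 in WT replicate 4, the highest of WT. None of the tested genes of the tissue lists had a log2 ratio of at least 1, which is near the 0.126% of all tested genes. The fat body list summed to 54441 in AdarEA replicate 2, the lowest of the AdarEA libraries, whose highest was 105531, and to 44883 in WT replicate 4. The immune effector list, which peaked in AdarEA replicate 3, came to 2452 in AdarEA replicate 2 and 2644 in WT replicate 4, the lowest of AdarEA and the highest of WT. The neuron and glia list summed to 110266 in AdarEA replicate 2, against 82846 to 125389 over AdarEA. In WT replicate 4 it came to 72903, the lowest of all libraries. The eye list came to 436063 in AdarEA replicate 2, and to 349050 in WT replicate 4, the highest of WT. The part of other tissue in the levels of the members was not tested beyond these values.

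**Figure D5:**
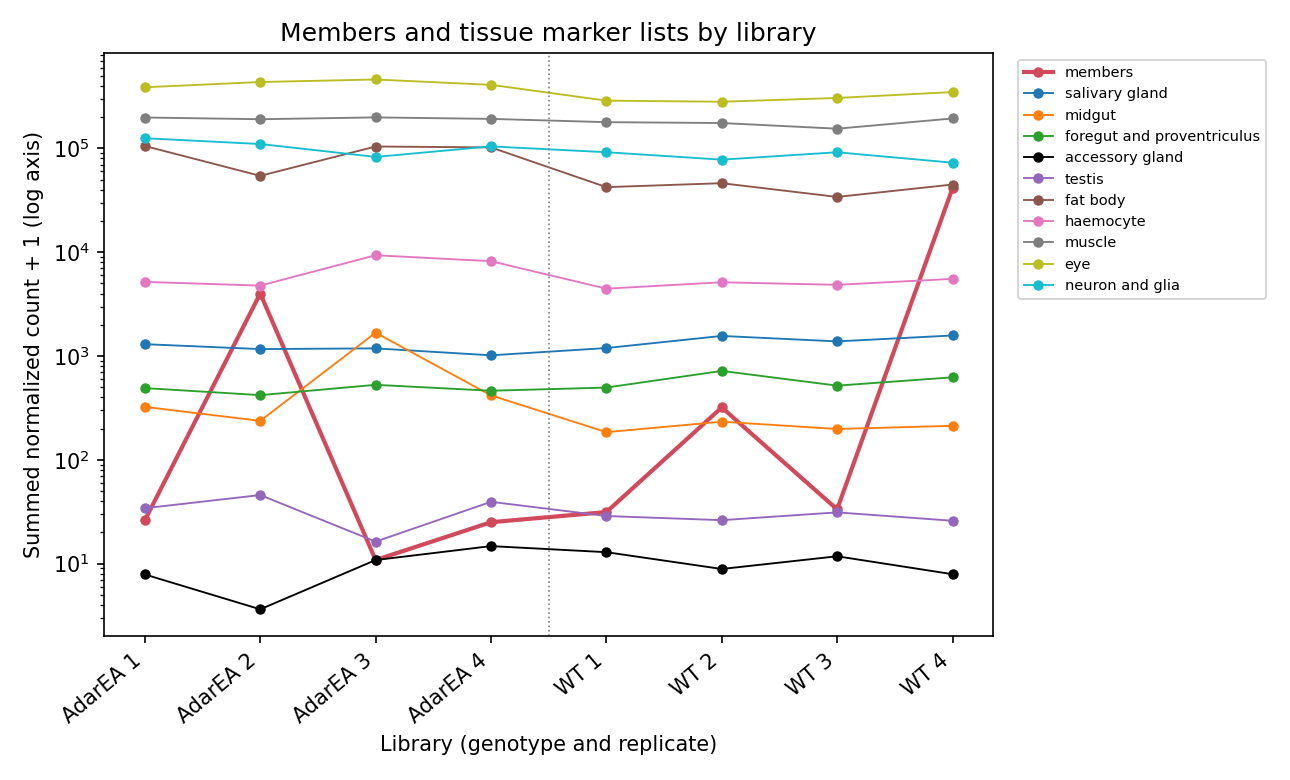
Summed normalized count plus 1 (log axis) of the 7 members and of 10 tissue marker lists in each library, AdarEA to the left of the dotted line and WT to its right; lines join the sums of a list as a guide, and replicates have no order. The members run from 9.85 in AdarEA 3 to 41377 in WT 4, while the salivary gland list stays between 1016 and 1577.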

How the data were processed

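RNA of fly heads, depleted of ribosomal RNA, was sequenced as paired-end reads of 75 bp (4 AdarEA and 4 WT libraries). The deposited signal for each gene and library is a read count scaled by the authors with the size factors of DESeq2. A mean over libraries was deposited too. The authors' own comparison was also deposited (log2 fold change with its error, a Wald score, and p-values), and was not used. The submitters' processing notes name TopHat, featureCounts, Subread and DESeq2 with the builds dm3 and BDGP5; use of strand in counting is not given in the sources used here. All values (100% in each library) were whole multiples, within 0.01 reads, of the smallest value of their column, which gave whole reads.

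Symbols were matched for 14022 of 14622 identifiers (95.9%). Positions and exon lengths are from Ensembl release 115 (BDGP6.54), not the build of the counts.

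AdarEA was compared with WT by limma 3.58.1 (trend) on log2(normalized count + 1), for the 10347 genes with a mean of at least 10, all 8 libraries and group as the only term, two-sided, with Benjamini-Hochberg adjustment and a threshold of 0.05. Alternatives were edgeR 4.0.16 and DESeq2 1.42.0 on the whole reads, TMM scaling, no filter, pseudocounts of 0.5 and 5, the replicate number as a block, and libraries left out. The fits were tested on simulated data.

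The members and lists were chosen with earlier results of these data known. Named beside the members were tested genes of the lysozyme and antigen 5 lists, the 10 genes most like the members by the log2 ratio, and Adar. Marker genes, flanking genes and genes too low to test were named after their values were seen.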

Additional observations from a re-analysis of the deposited data

Results flagged for a closer look

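The lowest and highest libraries of each group of 4 were compared with the gap beyond which Dixon's criterion (95%) sets a single value apart, in 58 groups taken from the genes named above and the total reads. Of these, 29 were set apart, among them all 14 groups of the members. Chance sets apart about 1 group in 20, but this rate is no measure for the total, since the members and the genes most like them were picked for being high in these libraries. Libraries set apart were AdarEA replicate 2 and WT replicate 4 in LysP (189 and 790 normalized counts), whe (454 and 8781), CG16826 (2232 and 22871), CG33109 (346 and 3051), CG34212 (174 and 1521), CG43679 (199 and 899) and Ag5r (410 and 3465).

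The same libraries were set apart in CG44142 (34.3 and 342), CG30371 (32.5 and 419), lcs (375 and 6421), CG13947 (14.1 and 951), CG12310 (15.8 and 60.9) and alpha-Man-Ic (17.6 and 107), which were picked for it. CG42656 was set apart in WT replicate 4 alone (105) and Cubn2 in AdarEA replicate 2 alone (120). Among genes not picked by library, CG16756 was set apart in WT replicate 2, at 180.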

How the results depend on the processing

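Members were described under 106 combinations of gene and alternative. Over these the log2 difference ran from -4.27 to 2.21 for whe, from -4.13 to 2.10 for CG16826, from -3.12 to 2.24 for CG33109, from -3.05 to 0.96 for CG34212, from -2.98 to 0.99 for CG43679, from -3.05 to 1.03 for LysP and from -3.59 to -0.87 for Ag5r. A move of over 1.5 times was thus common, also on leaving out a library in which the members were low. The number of members with a log2 ratio of at least 1 was 6, and between 6 and 7 when 1 of the other 6 libraries was left out (7 without WT replicate 2), a choice made after seeing the data. The 13 genes with the pattern became 24 with no filter on the mean and 248 at any log2 ratio above 0, and 13 to 14 with 1 of the other 6 libraries left out. The count of genes that differed between genotypes, 125, was 532 with DESeq2 and between 38 (without WT replicate 2) and 186 (without AdarEA replicate 2) with 1 library left out. It also moved by over 1.5 times on leaving out AdarEA replicate 1 (55), AdarEA replicate 4 (53), WT replicate 3 (60) or WT replicate 4 (78). The replicate block gave 26. The labels give no pairing, and the correlation of same-numbered libraries was not above 0.1 in every pair (0.19, -0.19, -0.23 and -0.12). The numbers were not taken as pairs in the main fit, though such correlations cannot exclude a weak pairing.

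Among related genes, CG16756 passed with DESeq2 (0.86). Signs turned for genes near 0. With DESeq2, CG16799 was at -0.0055 and CG6628 at -0.017, and with edgeR CG9822 was at 0.0030. With AdarEA replicate 2 and WT replicate 4 both left out, CG30062 was at -0.18 and CG6628 at -0.22. With 1 library left out, values ran from -0.19 to 0.13 for CG16799, from -0.16 to 0.38 for CG30062, from -0.21 to 0.34 for CG6628 and from -0.20 to 0.16 for CG9822. Where a member had 3 reads or fewer, depth limits its value to a statement of detection.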
